A study of Mus musculus with 6 samples.

Results

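Integrins are the receptors by which cells hold on to the matrix around them, and laminins are the main adhesive proteins of the basement membrane, the sheet that wraps each muscle fibre and encloses its satellite cells, the resident stem cells of skeletal muscle. The members described here are the genes of the integrin alpha and beta subunits, of the laminin alpha, beta and gamma chains, and of nidogen and perlecan (Nid1, Nid2 and Hspg2), which tie laminin to the collagen network. They were picked out by gene symbol. The rule found 39 of the 19938 genes measured, 26 of them integrin subunits and 13 matrix genes. One probe set stood for each gene, and all values below are log2 expression on the authors' deposited scale.

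Each integrin is a pair of 1 alpha and 1 beta subunit, and the alpha subunit largely sets the ligand. The alpha-3, alpha-6 and alpha-7 subunits bind laminin with the beta-1 subunit, and the alpha-6 subunit also pairs with beta-4, the subunit of epithelial hemidesmosomes. In muscle, alpha-7 beta-1 is the main laminin receptor of the fibre, and the main laminin of the fibre's basement membrane is built from the alpha-2, beta-1 or beta-2, and gamma-1 chains, the products of Lama2, Lamb1 or Lamb2, and Lamc1.

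The samples were 3 arrays of fresh satellite cells and 3 arrays of satellite cells cultured for 5 days, both from 2-month-old C57BL/6J mice with no genetic change named. Muscle of the hind limbs, abdomen and triceps was the source, and both groups began as cells sorted for B1-Integrin and CXCR4 and against CD45, CD31, CD11b, Ter119 and Sca1. The beta-1 integrin protein was therefore used to choose the cells, and Itgb1 was selected for in both groups. Culture wells were coated for 24 hours with collagen type 1 at 1 ug/ml and laminin at 10 ug/ml, the ligand of several members, and held F10 medium containing horse serum (20%), with basic fibroblast growth factor added each day at 5 ng/ml. The comparison thus sets cells just taken from their native basement membrane and sorted against cells on a purified laminin and collagen coat. Coat, serum, growth factor, time in culture and the recent isolation of the fresh cells cannot be told apart. The labels speak of 3 mice but do not say which array came from which, and the p-values therefore cover only the spread among these arrays, part of which may be technical. In such bulk samples, fewer cells of a type and less RNA per cell cannot be told apart.

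Array medians lay between 3.10 and 3.15, and correlations between arrays of the same group over all genes lay between 0.948 and 0.974. On cultured replicates 2 and 3, but not on cultured replicate 1, the brighter genes were dimmed. Among genes with a mean between 5 and 7, the median difference from the fresh mean was 0.13, -0.53 and -0.26 on cultured replicates 1, 2 and 3, and among genes with a mean between 3 and 5 it was 0.12, -0.021 and 0.09. Among brighter genes the shift was larger, at 0.04, -1.30 and -0.91 for means between 7 and 9 and at -0.087, -3.33 and -2.87 for means over 11. All 10 satellite cell markers were above background on the fresh arrays and 9 on the cultured arrays, where Chodl was within it. Of the 10, 8 fell, or 80% against 3.37% of all genes, among them Pax7 (-1.33 log2) and the sorted receptor gene Cxcr4 (-2.47 log2). Fresh replicate 1 stood apart in the tendon genes Tnmd, at 4.86 against 2.57 and 2.93 on the other fresh arrays, and Thbs4, at 6.11 against 3.89 and 2.98, with a summed tendon marker level of 19.1 against 14.6 and 13.5 on the other fresh arrays and 15.2 to 16.1 on the cultured arrays. Members went both ways on that array. It was the lowest of the fresh arrays for Itgb1, Itgb4, Itga7, Lama2, Lamb1, Lamc1 and Hspg2, among others. For Itga3, Itga2, Itga9 and Itgae, among others, it was the highest. Whether tendon cells were present, and had a part in this, was not tested.

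The promoters of 25 of the 39 members were in the RefSeq promoter table of build GRCm38.p6, which gives 250 bases before to 50 bases after a start. Those of Itga3, Itgb1, Lama2 and Lamb1 are shown because the results below turn on these genes and their promoters were in the table, Itga3 with both of its listed starts. Capitals mark the AP-1 motif TGANTCA, which the Fos protein of the series' title binds as part of the AP-1 dimer, and the GC box GGGCGG, read on both strands, which did not overlap here.
Itga3 promoter, chr11:95069149-95069448, minus strand: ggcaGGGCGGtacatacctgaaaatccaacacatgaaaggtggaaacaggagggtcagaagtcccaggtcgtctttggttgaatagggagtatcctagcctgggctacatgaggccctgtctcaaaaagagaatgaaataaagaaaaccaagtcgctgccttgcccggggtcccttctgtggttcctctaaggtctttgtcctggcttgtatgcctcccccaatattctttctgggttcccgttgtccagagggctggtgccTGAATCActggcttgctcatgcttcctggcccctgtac
Itga3 promoter, chr11:95076665-95076964, minus strand: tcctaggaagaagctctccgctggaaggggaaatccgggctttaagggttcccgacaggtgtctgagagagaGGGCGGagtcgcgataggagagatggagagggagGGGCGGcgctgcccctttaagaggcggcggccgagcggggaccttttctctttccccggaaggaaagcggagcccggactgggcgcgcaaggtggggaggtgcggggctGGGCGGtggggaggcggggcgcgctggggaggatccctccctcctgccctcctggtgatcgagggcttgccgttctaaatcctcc
Itgb1 promoter, chr8:128685404-128685703, plus strand: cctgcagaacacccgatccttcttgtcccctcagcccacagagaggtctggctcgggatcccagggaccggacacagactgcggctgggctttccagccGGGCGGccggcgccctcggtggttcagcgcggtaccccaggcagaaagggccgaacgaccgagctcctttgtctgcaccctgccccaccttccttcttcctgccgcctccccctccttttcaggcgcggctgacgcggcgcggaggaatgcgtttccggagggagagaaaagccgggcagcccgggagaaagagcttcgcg
Lama2 promoter, chr10:27616893-27617192, minus strand: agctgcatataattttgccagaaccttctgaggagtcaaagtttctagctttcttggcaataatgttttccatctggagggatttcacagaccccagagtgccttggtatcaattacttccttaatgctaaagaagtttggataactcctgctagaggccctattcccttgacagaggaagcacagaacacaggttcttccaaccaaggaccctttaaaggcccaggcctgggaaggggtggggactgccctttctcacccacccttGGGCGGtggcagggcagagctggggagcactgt
Lamb1 promoter, chr12:31265043-31265342, plus strand: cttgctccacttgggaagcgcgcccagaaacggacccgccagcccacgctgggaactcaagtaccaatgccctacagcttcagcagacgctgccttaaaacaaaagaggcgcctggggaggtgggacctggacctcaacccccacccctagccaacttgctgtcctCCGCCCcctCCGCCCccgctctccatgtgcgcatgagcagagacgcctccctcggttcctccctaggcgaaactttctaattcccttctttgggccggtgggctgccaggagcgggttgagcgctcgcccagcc
In these windows the AP-1 letters occurred once, in the downstream Itga3 start, 12 bases after it, while the upstream Itga3 window held the GC box 3 times. Lamb1 carried the GC box 2 times on the opposite strand, and Itgb1 and Lama2 once each. Over all 28 windows of the members the AP-1 motif was found in 3, those of Itga3, Itga9 and Itgax, or 10.7% against 7.81% of all 32851 windows in the table. The GC box was in 14 of the 28 windows against 35.7% of all, with a median GC content of 59.2% in the members' windows and 52.7% in all windows. The CCAAT box CCAAT was in 5 (17.9% against 37.4%), the E-box CAGCTG, of the kind myogenic factors bind, in 8 (28.6% against 16.3%), and the TATA box TATAAA in 0 against 13.6%. A match is a string of letters, not a bound site, and no match says only that the letters are not in the window.

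Of the 39 members, 3 rose in culture and 1 fell. The laminin-binding subunit gene Itga6 rose 2.03-fold, Itgb4 rose 1.57-fold, and the laminin gamma-1 gene Lamc1 fell 2.51-fold. Itga3, whose fresh mean lay within background, rose by 0.83 on the log2 scale when measured against the fresh background level. Called genes made up 10.3% of the members against 4.32% of all 19938 genes tested, higher genes 7.69% against 0.953%, and lower genes 2.56% against 3.37%. The median log2 difference was 0.09 over the members and 0.04 over all genes. The test was limma with Benjamini-Hochberg adjustment over all genes, at an adjusted p of 0.05. Fresh and cultured values did not overlap for 10 members, or 25.6% against 23.2% of all genes, so that this share was near the background.

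Many members were dim. Probe sets of 1196 olfactory and vomeronasal receptor genes gave a background level, the 95th percentile of their group means, of 3.16 on the fresh and 3.22 on the cultured arrays. By that level 24 members were above background in at least 1 group, 20 in both and 15 in neither. The 15 were Itga1, Itga11, Itga5, Itga8, Itga4, Itga9, Itgae, Itgam, Itgax, Itgb3, Itgb6, Itgb7, Itgb8, Lama3 and Lama4. Of the 24 members above background, 16.7% were called, against 7.36% of all genes above background in at least 1 group. A dim probe set does not show that the gene is silent, and differences near background are compressed.

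**Figure D1:**
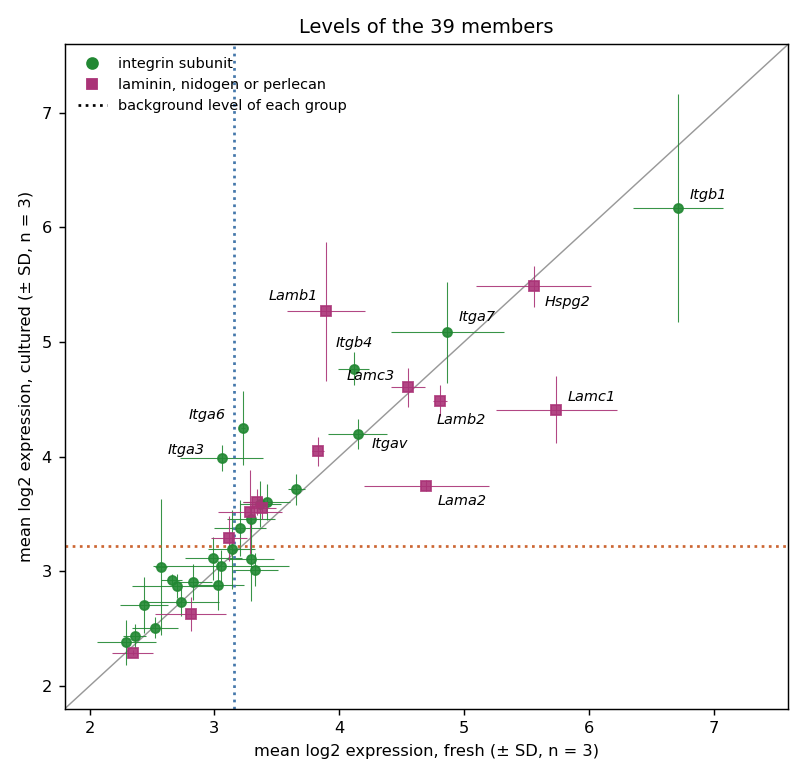
Mean log2 expression of each of the 39 members on the 3 cultured arrays (vertical axis) against the 3 fresh arrays (horizontal axis), with bars of 1 SD, circles for integrin subunits and squares for matrix genes. Points on the grey line have equal means, dotted lines are the background levels of 3.16 and 3.22, Itga3, Itga6, Itgb4 and Lamb1 lie above the line, and Lamc1 and Lama2 lie below it.

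Among the laminin-binding alpha subunits, 2 of 3 rose, where 0.953% of all genes did. Itga6 was at 3.23, 3.21 and 3.24 on the fresh arrays, just above background, and at 4.39, 3.88 and 4.48 on the cultured arrays. All cultured values lay above all fresh ones, and the fresh values were nearly equal. The log2 difference was 1.02 ± 0.18 (SE), a 2.03-fold rise, with a limma adjusted p of 0.0190. Itga3 was at 3.31, 2.68 and 3.18 on the fresh arrays, a mean within background, and at 3.96, 3.90 and 4.11 on the cultured arrays. Again the groups did not overlap, and the difference was 0.93 ± 0.19 with an adjusted p of 0.0345. Measured against the fresh background level it was at least 0.83 on the log2 scale. The call for Itga6 was lost when fresh replicate 1, 2 or 3 or cultured replicate 3 was left out, at limma adjusted p of 0.0651, 0.0832, 0.0823 and 0.0897. That for Itga3 was lost when replicate 2 or 3 of the fresh or of the cultured cells was left out, at 0.0772 and 0.0948 and at 0.0599 and 0.150. With 1 array left out, the log2 differences of both genes stayed between 0.75 and 1.21.

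Itga7, the alpha subunit of the main laminin receptor of muscle, was above background in both groups. It was at 4.38, 4.95 and 5.27 on the fresh arrays and at 4.98, 4.71 and 5.57 on the cultured arrays. These ranges overlapped. The log2 difference was 0.22, with a 95% interval from -0.45 to 0.89 and a limma adjusted p of 0.763. Its sign depended on single arrays, at -0.026 without fresh replicate 1 and -0.025 without cultured replicate 3.

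The beta subunit genes gave 1 rise among 8, or 12.5% against 0.953% of all genes, a share that rests on 1 gene. Itgb4 was at 3.99, 4.12 and 4.24 on the fresh arrays and at 4.71, 4.66 and 4.93 on the cultured arrays. The groups did not overlap, each with a small spread, and the rise of 0.65 ± 0.14 (SE) on the log2 scale passed at a limma adjusted p of 0.0481. This call was the narrowest of the 4 and was lost without any 1 array, at adjusted p of 0.0530 (without cultured replicate 1), 0.0659 (cultured replicate 2), 0.104 (fresh replicate 3), 0.135 (fresh replicate 1), 0.147 (fresh replicate 2) and 0.184 (cultured replicate 3).

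Itgb1, the common beta subunit on which the cells were sorted, was at 6.31, 7.01 and 6.83 on the fresh arrays. On the cultured arrays it was at 7.14, 5.15 and 6.22, so that cultured replicate 1 held the highest and cultured replicate 2 the lowest of all 6 values. The SD was 0.36 in fresh and 1.00 in cultured cells. The log2 difference of -0.55 had a 95% interval from -1.60 to 0.51 and a limma adjusted p of 0.602. It was -0.039 without cultured replicate 2 and -1.03 without cultured replicate 1, and after a further quantile normalization it was -0.18. The cultured arrays that were low for Itgb1 were those on which genes with means between 5 and 7 were dimmed, and the part of that dimming was not tested.

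Markers of other cell types that carry these subunits were read beside them. Endothelial cells and Schwann cells both use alpha-6 integrins, and Schwann cells use beta-4. Of 10 endothelial markers none rose and 1, Tek, fell, or 10% lower against 3.37% of all genes. Among the 10 differences 9 were above 0, against 11284 of all 19938 genes. In both groups 5 of the 10 lay within background. On all cultured arrays 4 of the 10 lay above all fresh ones, or 40% against 12.9% of all genes. Among them were Cldn5 (0.76 log2, limma adjusted p of 0.0945) and Egfl7 (0.56, 0.134). The summed log2 level of the 10 was 29.0 to 29.7 on the fresh and 30.6 to 31.3 on the cultured arrays. Pecam1, which encodes the CD31 sorted against, lay within background on all arrays, between 2.48 and 2.76. Of 5 Schwann cell markers none was called, with sums of 16.4 to 17.5 on fresh and 16.9 to 17.2 on cultured arrays. The endothelial sums were higher on all cultured arrays, as Itga6 and Itgb4 were, and their part in the rises was not tested.

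**Figure D2:**
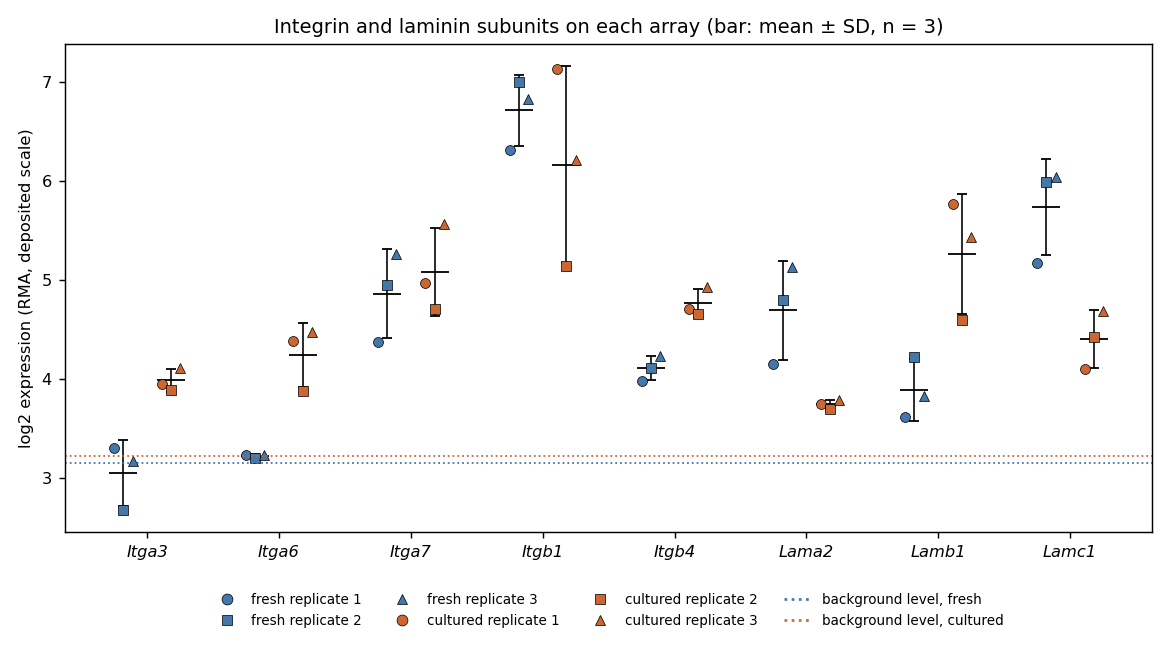
Log2 expression (vertical axis) of 8 members on each of the 6 arrays, blue for fresh and orange for cultured, with a marker shape for each replicate number, a bar for the mean and SD of 3 arrays, and dotted lines for the background levels. Itga3, Itga6, Itgb4, Lama2, Lamb1 and Lamc1 show groups that do not overlap, while the cultured values of Itgb1 run from 5.15 to 7.14.

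None of the other 21 integrin subunit genes passed the test, and 13 of them lay within background in both groups. The collagen-binding alpha subunit genes Itga1, Itga2, Itga10 and Itga11 had log2 differences between -0.31 and 0.19 and did not pass. Itga1 and Itga11 lay within background in both groups. The lowest of these was Itga2, within background on the cultured arrays, with a 95% interval from -0.67 to 0.04. Among the subunits that recognise the RGD sequence of fibronectin and vitronectin (Itga5, Itga8, Itgav and Itga2b), differences lay between -0.15 and 0.27. Itgav, which pairs with several beta subunits, was above background on all arrays at 3.88, 4.27 and 4.30 in fresh and 4.26, 4.05 and 4.28 in cultured cells, with an interval from -0.33 to 0.43. Its direction turned with cyclic loess, to -0.0048, as did that of Itgal, and those of the dim Itga4 and Itgb3 turned with both rescalings.

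Itga5, the fibronectin receptor subunit, was within background in both groups, at 2.56, 2.73 and 2.68 in fresh and 2.95, 2.96 and 2.86 in cultured cells. Its groups did not overlap, yet the limma adjusted p was 0.331. Itga4, which binds Vcam1, and Itga9 were within background with differences of 0.00 and 0.17. The leukocyte subunits Itgal, Itgam, Itgax, Itgad and Itgae lay between -0.01 and 0.17, and none of them passed. The highest of these, Itgad, turned to -0.034 when averaged over its 2 probe sets. Itgae, singled out after its values were seen, was at 3.67 on fresh replicate 1 and between 2.64 and 3.21 on the other 5 arrays. Of 11 leukocyte markers 1 rose, or 9.09% against 0.953% of all genes, and none fell. The 1 was the lysosomal protein gene Laptm5 (1.06 log2). Ptprc, which encodes CD45, lay between 1.95 and 2.66 on all arrays.

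Of the remaining beta subunits, Itgb2, Itgb3, Itgb5, Itgb6, Itgb7 and Itgb8 lay between -0.18 and 0.46. Itgb8, a partner of alpha-v also singled out after its values were seen, was at 2.55, 2.54 and 2.63 on the fresh arrays and at 2.78, 2.61 and 3.72 on the cultured arrays. Cultured replicate 3 alone was above background, and the limma adjusted p was 0.446. Itgb2, the common leukocyte beta subunit, was at 3.17 to 3.52 in fresh and 3.37 to 3.58 in cultured cells, and Itgb3, the platelet and RGD-binding subunit, at 2.92 to 3.27 and 2.87 to 3.56. None of 3 megakaryocyte and platelet markers was called.

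**Figure D3:**
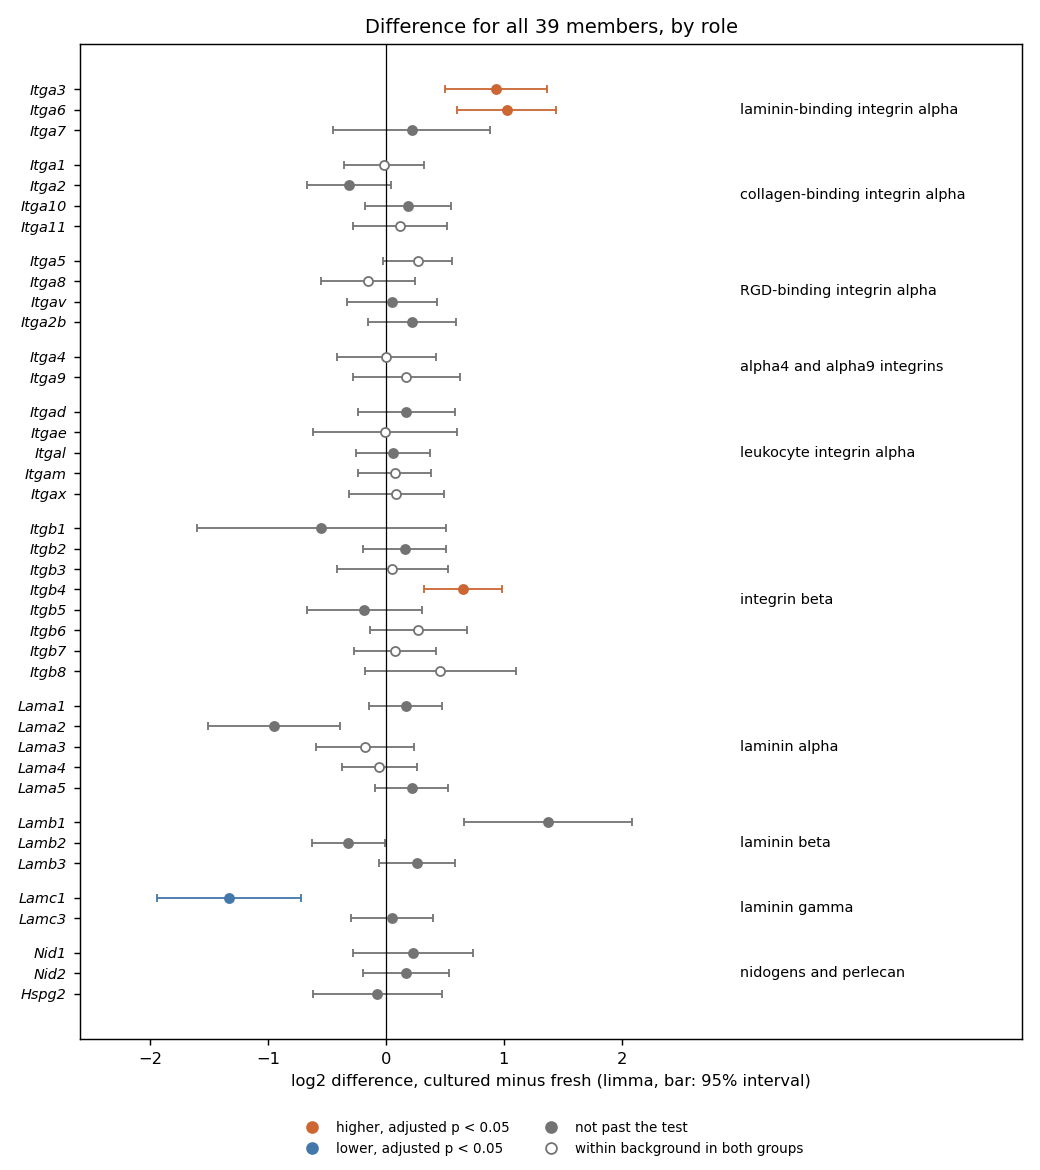
Log2 difference, cultured minus fresh (horizontal axis), for all 39 members grouped by role, with bars for the 95% interval from limma. Orange marks the 3 genes that rose (Itga3, Itga6 and Itgb4), blue the 1 that fell (Lamc1), grey the others, and open circles the genes within background in both groups.

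Of the 10 laminin chain genes 1 fell and none rose, where 3.37% of all genes fell and 0.953% rose. Lamc1, whose gamma-1 chain is shared by most laminins, was at 5.18, 6.00 and 6.04 on the fresh arrays and at 4.11, 4.43 and 4.70 on the cultured arrays. Every cultured value lay below every fresh one. The fall of 1.33 ± 0.26 (SE) on the log2 scale had a limma adjusted p of 0.0330. Leaving out replicate 2 or 3 of the fresh cells ended the call, at adjusted p of 0.132 and 0.131, as did leaving out replicate 2 or 3 of the cultured cells, at 0.0695 and 0.0733. Without fresh replicate 1 the call was kept, at -1.61 with 0.0112. The mean of Lamc1 over all arrays lay between 5 and 7, where cultured replicates 2 and 3 were dimmed, and its fall was also called after quantile normalization (-1.16, limma adjusted p of 0.0210) and cyclic loess (-1.29, 0.0208).

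Lama2, the alpha chain of the muscle fibre laminin, was at 4.15, 4.80 and 5.14 on the fresh arrays and at 3.75, 3.70 and 3.79 on the cultured arrays. The groups did not overlap, and the cultured values were close together. The log2 difference of -0.95 ± 0.24 (SE) did not pass, at a limma adjusted p of 0.0772. It passed without fresh replicate 1, at -1.22 with 0.0136, and under 3 of the other settings, those that rescaled or weighted the arrays, at adjusted p of 0.0270 to 0.0284.

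Lamb1, which encodes the beta-1 chain, had the highest difference of all members and just missed the threshold. It was at 3.62, 4.23 and 3.83 on the fresh arrays and at 5.77, 4.60 and 5.44 on the cultured arrays. No value of one group reached those of the other, and the difference was 1.37 ± 0.31 (SE) on the log2 scale, or 2.59-fold, at a limma adjusted p of 0.0505. It passed without cultured replicate 1 (1.12, adjusted p of 0.0456) or cultured replicate 2 (1.71, 0.00815), and under 6 of the other settings, both rescalings among them (adjusted p of 0.00482 to 0.0496). It did not pass without fresh replicate 1, 2 or 3 (0.156, 0.0928 and 0.172) or cultured replicate 3 (0.193).

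Lamb2, which encodes the beta-2 chain of synaptic laminin, was at 4.74, 4.83 and 4.85 in fresh and 4.50, 4.35 and 4.62 in cultured cells. The groups did not overlap, but the difference of -0.32 had a limma adjusted p of 0.273. Lamb3, a chain of epithelial laminin, was at 3.21 to 3.44 and 3.47 to 3.67, with a difference of 0.26 and an adjusted p of 0.384. Lamc3 was at 4.41 to 4.67 in fresh and 4.42 to 4.75 in cultured cells, an overlap, with an interval from -0.29 to 0.40.

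Of the other alpha chains, Lama5 was at 3.86, 3.77 and 3.86 on the fresh and at 3.96, 3.98 and 4.19 on the cultured arrays, groups that did not overlap, with a difference of 0.22 and a limma adjusted p of 0.456. Lama1, a chain of embryonic basement membrane, was at 3.31 to 3.51 and 3.44 to 3.63. Lama4, a chain of vessel basement membranes, was at 2.22 to 2.53 in fresh and 2.28 to 2.31 in cultured cells, and Lama3 at 2.56 to 3.12 and 2.48 to 2.78, both within background.

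The proteins that link laminin to collagen IV did not pass. Hspg2, which encodes the heparan sulphate proteoglycan perlecan, was at 5.06, 5.97 and 5.65 in fresh and 5.63, 5.29 and 5.54 in cultured cells. Its 95% interval ran from -0.62 to 0.48, and its direction turned to as much as 0.17 under other scalings. Nid1 was at 3.16, 3.58 and 3.12 and then 3.91, 3.18 and 3.46, and Nid2 at 3.02, 3.28 and 3.05 and then 3.10, 3.27 and 3.49, both with overlapping groups and differences of 0.23 and 0.17.

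Cells that make matrix around muscle were read beside the laminin genes. Of 7 fibro-adipogenic markers 3 fell and none rose, or 42.9% lower against 3.37% of all genes. The 3 were Dcn, Dpt and Col3a1 (-1.08 log2). Dcn and Dpt were within background on the cultured arrays, and their falls against that level were 4.16 and 4.21. The summed log2 level of the list was 33.2 to 36.5 on the fresh and 23.5 to 24.1 on the cultured arrays. Most of this fall lay in Dcn and Dpt, and the median difference over the list was -0.62. The sum was lower where Lamc1 was lower, and its part in that result was not tested. On fresh replicates 1, 2 and 3 Dcn was at 8.53, 7.78 and 5.86 and Dpt at 7.39, 7.24 and 7.68, while Lama2 and Lamc1 were both highest on replicate 3. Pdgfra, a defining marker of these cells, was at 3.23 to 3.61 in fresh and 3.57 to 3.67 in cultured cells. Of 8 pericyte and smooth muscle markers and 4 tendon markers none was called. Of 7 myofibre markers 1 fell, Ckm (14.3% lower against 3.37% of all genes). Of 9 mast cell and basophil markers 1 rose, Mcpt8 (11.1% against 0.953% higher).

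Inside the cell, integrin tails are switched on by talins and kindlins and tied to actin by a set of adaptors. Of 36 measured activators and adaptors 4 rose and 1 fell, with a median of 0.09. That is 13.9%, against 4.32% of all genes. Of all genes above background 7.36% were called. Above it were 32 of the 36, but not Ptk2b, which is among the called genes. Parvb, which encodes beta-parvin of the complex with integrin-linked kinase, rose by 1.56 on the log2 scale, with a limma adjusted p of 0.00673. Its fresh mean lay within background, and against the background level the rise was 1.22. Its values were 2.50, 2.99 and 2.97 in fresh and 4.73, 4.35 and 4.06 in cultured cells, and the call was kept without any 1 array. Tns1, the actin linker tensin-1, rose by 1.07 with an adjusted p of 0.00762, but was at 0.22 when averaged over its probe sets.

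The adaptor gene Bcar1, a substrate of focal adhesion kinase signalling, rose by 0.89 with a limma adjusted p of 0.0332, from 4.04, 4.08 and 4.24 to 5.28, 4.70 and 5.04. Ptk2b, a kinase related to focal adhesion kinase, rose by 0.82 with 0.0140, although both of its group means lay within background. Rap1b, a small GTPase that recruits talin to integrins, fell by 2.15 with an adjusted p of 0.0414, from 7.33, 8.18 and 7.94 to 6.71, 4.83 and 5.48. Leaving out fresh replicate 1, 2 or 3 or cultured replicate 3 ended the call of Bcar1 (adjusted p up to 0.137). Leaving out replicate 2 or 3 of the fresh cells or replicate 3 of the cultured cells ended that of Ptk2b (up to 0.0718), and leaving out any single array but cultured replicate 1 ended that of Rap1b (up to 0.169). After quantile normalization and cyclic loess Rap1b was at -1.75 and -1.85, both called. Among those of the list that did not pass, named after their values were seen, the kindlin gene Fermt2 averaged 5.65 ± 0.05 (SD, n = 3) in fresh and 4.58 ± 0.63 in cultured cells (limma adjusted p of 0.0919), and Ilk, the integrin-linked kinase, averaged 6.41 ± 0.36 and 5.61 ± 0.67 with 0.272. The means of Fermt2 and Ilk over all arrays lay between 5 and 7, where cultured replicates 2 and 3 were dimmed, and the part of that dimming was not tested. The talin-1 gene Tln1 differed by 0.33 and the actin cross-linker Actn1 by 1.05, with adjusted p of 0.385 and 0.0664.

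Of 21 other basement membrane genes and laminin receptors 2 rose and 1 fell, with a median of 0.05. That is 14.3%, against 4.32% of all genes and 7.36% of genes above background. Dag1 encodes dystroglycan, the other main laminin receptor of muscle, and fell by 1.75 on the log2 scale with a limma adjusted p of 0.0117. It was at 6.33, 6.70 and 7.30 on the fresh and 4.98, 4.69 and 5.39 on the cultured arrays, with no overlap, and lost its call without fresh replicate 2 at 0.0546. The mean of Dag1 over all arrays lay between 5 and 7, where cultured replicates 2 and 3 were dimmed. Its fall was also called after quantile normalization (-1.44, limma adjusted p of 0.00815) and cyclic loess (-1.60, 0.00693). Npnt, the gene of the alpha-8 integrin ligand nephronectin, rose by 0.96 with 0.0171, and Col18a1, a basement membrane collagen, by 0.74 with 0.0381. Npnt did not pass when replicate 1 or 2 of the fresh cells or replicate 3 of the cultured cells was left out (adjusted p up to 0.0749), nor Col18a1 when any single array but cultured replicate 2 was (up to 0.160). The main collagen IV genes Col4a1 and Col4a2 differed by -0.34 and -0.11 and did not pass.

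Of 18 other integrin ligands 5 fell and none rose, with a median of -0.17. That is 27.8% lower, against 3.37% of all genes lower, or 4.32% in either direction. Of genes above background, as 17 of the 18 were, 5.81% were lower and 7.36% called in either direction. The 5 were the matricellular genes Ccn2 (-2.82) and Ccn1 (-2.81), the alpha-4 ligand Vcam1 (-2.69), the vitronectin gene Vtn (-1.81) and Col3a1 (-1.08), at limma adjusted p of 5.90e-05, 0.000375, 0.0101, 0.00820 and 0.0148. Vtn was at 4.81, 5.72 and 4.72 in fresh and 3.20, 3.19 and 3.44 in cultured cells, and kept its call without any 1 array, as did Ccn1 and Ccn2. Vcam1 did not pass when replicate 2 or 3 of the fresh cells or replicate 3 of the cultured cells was left out (up to 0.0600). Col3a1 did not pass when replicate 1 or 2 of the fresh cells or replicate 3 of the cultured cells was left out (up to 0.0818), nor after quantile normalization (0.112) or cyclic loess (0.0506). The means of Vcam1 and Ccn2 lay between 5 and 7 and that of Ccn1 between 7 and 9, where cultured replicates 2 and 3 were dimmed, and under the same rescalings the smallest falls were -2.43, -2.47 and -2.20, all called. The ligands Tnc (a mean of 4.35 in cultured cells against 2.97, within background, in fresh cells), Thbs1 (a difference of 1.31) and Fn1 (0.73) lay higher on all cultured arrays without passing, at adjusted p of 0.0507, 0.114 and 0.201.

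**Figure D4:**
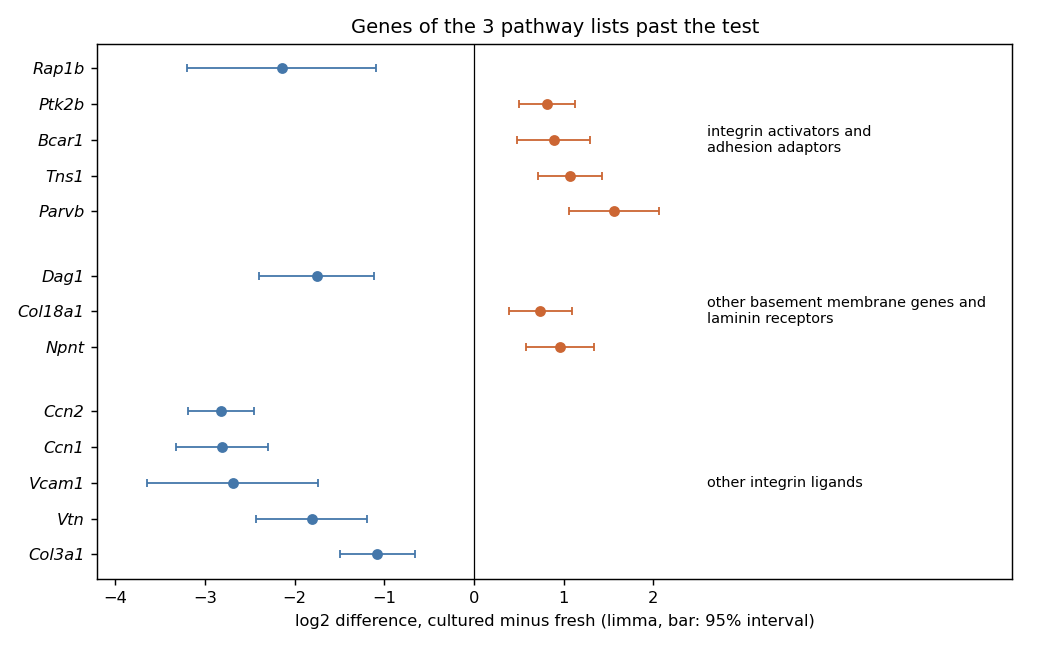
Log2 difference, cultured minus fresh (horizontal axis), with 95% intervals, for the 13 genes of the 3 pathway lists past the test. Orange marks the 6 that rose, from Col18a1 at 0.74 to Parvb at 1.56, and blue the 7 that fell, from Col3a1 at -1.08 to Ccn2 at -2.82.

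The 4 calls among the members rested on margins that the number of arrays limits. The members called were the same 4 in none of the cases with 1 array left out, and between 0 and 4 members were called there. No member was called when replicate 2 or 3 of the fresh cells or replicate 3 of the cultured cells was left out. Itga3, Itga6, Itgb4, Lamb1, Lama2 and Lamc1 kept their directions after quantile normalization and cyclic loess. Their groups did not overlap, so the other settings, which refit, weight or leave out the same values, could not have turned a direction.

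**Figure D5:**
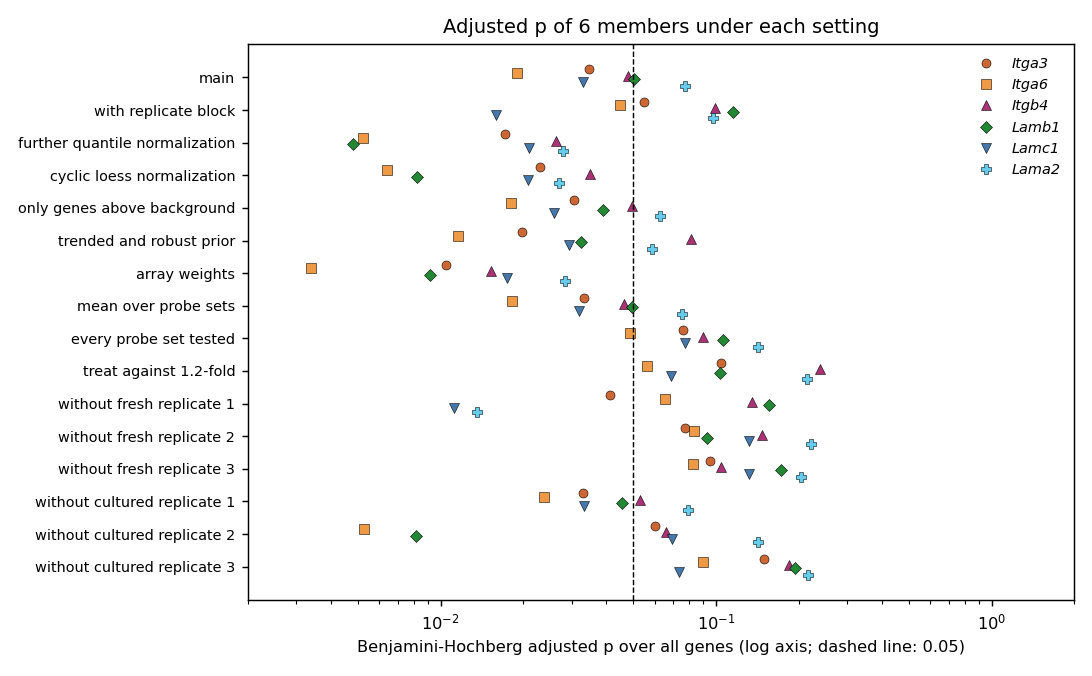
Adjusted p on a log axis (horizontal axis) of 6 members under the main setting and 15 others (rows), with the dashed line at 0.05. Itga6 lies left of the line in 10 of the 15 others, Lamc1 in 9, Itga3 and Lamb1 in 8 each, Itgb4 in 5 and Lama2 in 4.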

How the data were processed

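Biotin-labelled RNA of fresh and cultured satellite cells was measured on whole-transcript Affymetrix arrays, according to the labels. The deposited table holds log2 values of 35556 probe sets on 6 arrays, made with RMA and oligo per the submitters' processing notes, versions unstated. This method compresses differences near background. A genome build is not given in the sources used.

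Probe sets were named by the platform annotation of a single gene (21789 probe sets, with 1621 of several genes left out and 12146 without a listed gene), and symbols were updated through GRCm38.p6. The probe set with the highest mean was kept for each of 19938 genes. Only 1 member, Itgad, had more than 1. Cultured was compared with fresh in limma 3.58.1 (R 4.3.3) on the deposited values, with no filter and Benjamini-Hochberg adjustment over all genes. Pathway and marker lists were matched by symbol. The promoters were searched in Python 3.11.15. Alternatives were a replicate block, further quantile or cyclic loess normalization, a filter on dim genes, a trended robust prior, array weights, other probe set rules, leaving out each array and treat against 1.2-fold. The scripts were tested on simulated arrays. There the test called 39 of 100 genes changed by 1 on the log2 scale and 94 of 100 changed by 2. Of 19738 unchanged genes it called 8. A member that did not pass may therefore still differ by 2-fold.

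Values on every array are given for members past the test, for members above background with at least a 2-fold difference, and for Itgb1, Itga3, Itga6, Itga7, Lama2 and Lamc1, and for some others chosen after their values were seen. The members and lists were chosen with earlier results of these data known.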

Additional observations from a re-analysis of the deposited data

How the results depend on the processing

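With the replicate number as a block, 1 member was lower and 1 higher, 2 activators and adaptors and 1 basement membrane gene were called, and Itga3 and Itgb4 missed the threshold at adjusted p of 0.0549 and 0.0994. The deviations of same-numbered arrays from their group means correlated at -0.09, -0.14 and 0.03, which gave no sign of pairing. Shifts of whole arrays enter these values, so they cannot exclude that same-numbered arrays share a mouse. After quantile normalization, cyclic loess or array weights, 2 members were lower (Lama2 joining Lamc1) and 4 higher (Lamb1 joining the 3), 8 activators and adaptors were called in each, and 1511, 1492 and 1742 of all genes against 861. The share of higher genes among all called ones was 22.1% as reported and 38.8%, 30.6% and 33.6% there. With every probe set tested, 0 members were lower and 1 was higher (Itga6), with 3 activators and adaptors and 547 of all genes, and with treat against 1.2-fold no member was called in either direction (0 lower, 0 higher), with 2 activators and adaptors, 1 basement membrane gene and 557 of all genes. Leaving out 1 array gave 0 to 2 members lower, 0 to 3 higher, 2 to 8 activators and adaptors, 0 to 3 basement membrane genes, 3 to 7 ligands and 448 to 1517 of all genes. Itga7 ranged from -0.026 to 0.42, turning below 0 without fresh replicate 1 (-0.026) and without cultured replicate 3 (-0.025). The cause of these changes was not tested. Signal near background limits what can be said of the 15 dim members.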
